A study of Homo sapiens with 12 samples.

Results

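This comparison sets K562/ADR cells against K562 cells after both had received decitabine, and covers every gene that could be read, 18417 in all, on the 6 treated arrays of the 12 in the series. The sensitive line, called KS here, is K562, which was established from a patient's chronic myeloid leukaemia. The resistant line, KA, is K562/ADR, a multidrug-resistant subline of it that was obtained with adriamycin (doxorubicin, an anthracycline) and kept in 50 nM of that drug. Both lines received the DNA-hypomethylating agent decitabine at 5 nM for 72 hours, and each of the 4 groups (treated KA, treated KS, untreated KA and untreated KS) held 3 Affymetrix arrays of total RNA. What the untreated cells were given is not in the labels, nor whether adriamycin was present while decitabine was, or whether each replicate was a culture of its own. All p-values below therefore reflect only how far these samples scatter, which may be technical. The line and the adriamycin of its medium differ together and cannot be told apart. The study set out to learn how decitabine acts on resistance that rests on P-glycoprotein, and this comparison asks how the lines still differ once both have had the drug.

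P-glycoprotein, the product of ABCB1, is an ATP-driven pump of the plasma membrane that expels anthracyclines and many other drugs. Decitabine is a deoxycytidine analogue that must be phosphorylated in the cell, is built into DNA in place of deoxycytidine and traps DNA methyltransferases there, so that newly made DNA loses methylation. K562 cells carry the BCR-ABL kinase and keep features of early red cell and megakaryocyte precursors. ATF4 is a transcription factor whose translation rises when cells are short of amino acids or load their endoplasmic reticulum with unfolded protein, and its targets supply amino acids, carry them into the cell and answer stress.

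Expression is given as the deposited log2 intensity, and a difference of 1 is a doubling of intensity. Differences are treated KA minus treated KS with the standard error (SE), from a limma model over all 12 arrays. A gene is called higher or lower at a Benjamini-Hochberg adjusted p under 0.05 over all 18417 genes. The background level is set at 3.39, the largest of the 12 arrays' lower quartiles. A group whose mean lies at or below it is called not above background, and a fold against it is a lower bound counted from that level. The median intensity was 4.96 to 5.01 on all arrays, and treated arrays of the same line correlated at 0.992 to 0.994. One treated array stood apart: over the 147 genes that decitabine lowered in KS, treated KS replicate 1 lay a median of 28.8% of the way back to untreated KS on the log2 scale, and over 271 raised genes 9.5%. Over 329 genes that rose and 148 that fell with decitabine in KS, untreated KS replicate 3 lay 36.7 and 23.8% of the way to treated KS, which bears on every comparison with the untreated lines below. The red cell factors GATA1 (9.10 in treated KA and 9.14 in treated KS) and KLF1 (8.77 and 8.94) were bright in both lines and not called. Of 9 markers of K562 identity 1 was higher (TAL1, 0.33) and 1 lower (TFRC, -0.29), and of 25 erythroid and megakaryocyte transcription factors 6 were higher and 5 lower.

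Between the treated lines 4977 genes were called (27.0% of those tested): 2777 were higher in KA (15.1%) and 2200 lower (11.9%). Of these, 300 were higher and 211 lower by at least 1. The median size of a called difference was 0.44, and for 4919 of the called genes every array of one line lay above every array of the other. The split between the directions depends on the scaling, since quantile normalization gave 2594 higher and 2667 lower. The counts of each gene list below are to be read beside the 15.1% and 11.9% of all genes. Where the line difference with decitabine is set against that without, 4.60% of all genes were called more positive and 2.14% more negative.

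The sequences that bear on the list with the largest share of genes called higher, the ATF4 targets, are shown first. ATF4 with a C/EBP partner binds a composite element, searched here as TGATGNAA on both strands of RefSeq promoters (GRCh38.p14, 250 bases before to 50 after the gene's start), a motif chosen after the values were seen. It was found in 6 of the 27 promoters held for that list (22.2%: ASNS, CHAC1, MTHFD1L, SLC3A2, SLC7A1 and FGF21) and in 361 of 14237 promoters of all measured genes (2.54%). The matches upstream of 4 starts are printed on the strand of the gene with the match in capitals. They lie at chr7:97872453-97872492 on the minus strand (ASNS) and, on the plus strand, at chr15:40953246-40953285 (CHAC1), chr6:150866341-150866380 (MTHFD1L) and chr19:48755454-48755493 (FGF21). A match describes the letters of the promoter and is not a measured binding site.
ASNS: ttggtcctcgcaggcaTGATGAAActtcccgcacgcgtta
CHAC1: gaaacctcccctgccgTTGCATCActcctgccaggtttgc
MTHFD1L: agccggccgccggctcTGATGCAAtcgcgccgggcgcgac
FGF21: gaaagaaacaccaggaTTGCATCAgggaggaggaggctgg
The match starts 68 bases before the start of ASNS, 209 before that of CHAC1, 129 before that of MTHFD1L and 54 before that of FGF21. The first 3 genes were higher in treated KA by 2.20, 1.37 and 1.26, while FGF21 lay close to background (3.94 in treated KA and 3.85 in treated KS) and was not called. Of the promoters held for genes higher by at least 1, 6.3% (15 of 238) had the motif, and of those for genes lower by at least 1, 2.47% (4 of 162). The higher set includes ASNS, CHAC1 and MTHFD1L, which are already counted in the ATF4 list. That list was drawn up from known ATF4 targets, so its share of motifs says nothing about these arrays. Whether ATF4 acts on these promoters here was not tested.

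The pump that defines the resistant line remained the largest difference after decitabine. ABCB1 read 11.32, 11.36 and 11.40 in treated KA and 3.78, 3.05 and 3.54 in treated KS (replicates 1 to 3). The lines were far apart and treated KS sat at background: 2 of its arrays lay just above 3.39 and 1 below. The difference was 7.91 ± 0.15 (adjusted p = 1.7e-12). Untreated KS was not above background, so a change of this difference with decitabine could not be sized; in KA decitabine changed ABCB1 by 0.15 (not called). CROT, a peroxisomal carnitine acyltransferase and neighbour of ABCB1, read 9.87, 9.77 and 9.71 in treated KA and 2.88, 2.81 and 2.81 in treated KS. Treated KS was not above background, and CROT was at least 83.8-fold higher in treated KA (adjusted p = 1.4e-14). ABCB4, a phospholipid transporter next to ABCB1, read 6.21, 6.45 and 6.44 against 3.40, 3.77 and 3.50. Its difference of 2.81 ± 0.12 was 1.48 ± 0.18 larger than in the untreated lines (adjusted p = 0.0019), and decitabine changed it by 1.40 in KA (adjusted p = 5.5e-05) and by -0.08 in KS, where it stayed near background and was not called.

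These genes lie in a run of neighbours on chromosome 7. Windows of 11 neighbouring protein-coding genes in RefSeq order had a median difference of at least 1 at 15 successive centres from ELAPOR2 to STEAP1. They span PCLO to CDK14 (25 genes, 17 higher and 3 lower). The same held at 15 further centres from GTPBP10 to SAMD9L, which span ZNF804B to GNGT1 (25 genes, 18 higher and none lower). The spans overlap from ZNF804B to CDK14, so the genes there are counted in both. The highest window median was 3.08 in the first stretch, with 3.20 for the same window in untreated lines, and 1.44 in the second, with 1.09 untreated. TMEM243, a small membrane protein, was higher by 4.36 ± 0.08, DBF4, which activates the CDC7 kinase at replication origins, by 3.32 ± 0.12, and CLDN12, a claudin, by 2.19 ± 0.06. CDK6, a kinase that drives cells into S phase, was higher by 1.87 ± 0.10 and GTPBP10, a GTPase of mitochondrial ribosome assembly, by 1.97 ± 0.11. RUNDC3B, a RUN-domain protein beside ABCB1, read 6.13, 5.75 and 6.11 in treated KA and 3.19, 3.57 and 3.50 in treated KS. Its difference of 2.58 ± 0.22 was 1.74 ± 0.31 larger than without decitabine (adjusted p = 0.0093). Decitabine changed RUNDC3B by 1.56 in KA (adjusted p = 0.0008) and by -0.17, not called, in KS, where it stayed near background. DNA copy number was not measured on these arrays.

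The genes that follow complete the 15 with the largest positive differences, beside ABCB1, CROT and TMEM243. SLCO4C1, an organic anion carrier, was at least 14-fold higher, since treated KS (3.01) was not above background, as were APBB2, an adaptor that binds amyloid precursor protein (at least 8.13-fold), and EYS, an extracellular protein of photoreceptors (at least 8.92-fold). CA2, carbonic anhydrase II, read 8.36, 8.39 and 8.31 in treated KA and 4.41, 4.58 and 3.79 in treated KS (4.09 ± 0.20, adjusted p = 7.6e-09). SPARC, a matrix protein carried by platelets, differed by 4.09 ± 0.12, F2RL2, a protease-activated receptor, by 4.07 ± 0.10, and MS4A3, a membrane protein of granulocyte precursors, by 3.99 ± 0.26. The actin-binding proteins SCIN (scinderin) and LCP1 (L-plastin) were higher by 3.71 ± 0.18 and 3.36 ± 0.07, and LPCAT2, which remodels phospholipids, by 3.89 ± 0.09. SSX1 (4.04 ± 0.09) and MAGEB16 (3.32 ± 0.16) belong to families of tumour antigens whose members resemble each other, so the copy read is uncertain. All arrays of treated KA lay above all arrays of treated KS in each of these genes.

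**Figure D1:**
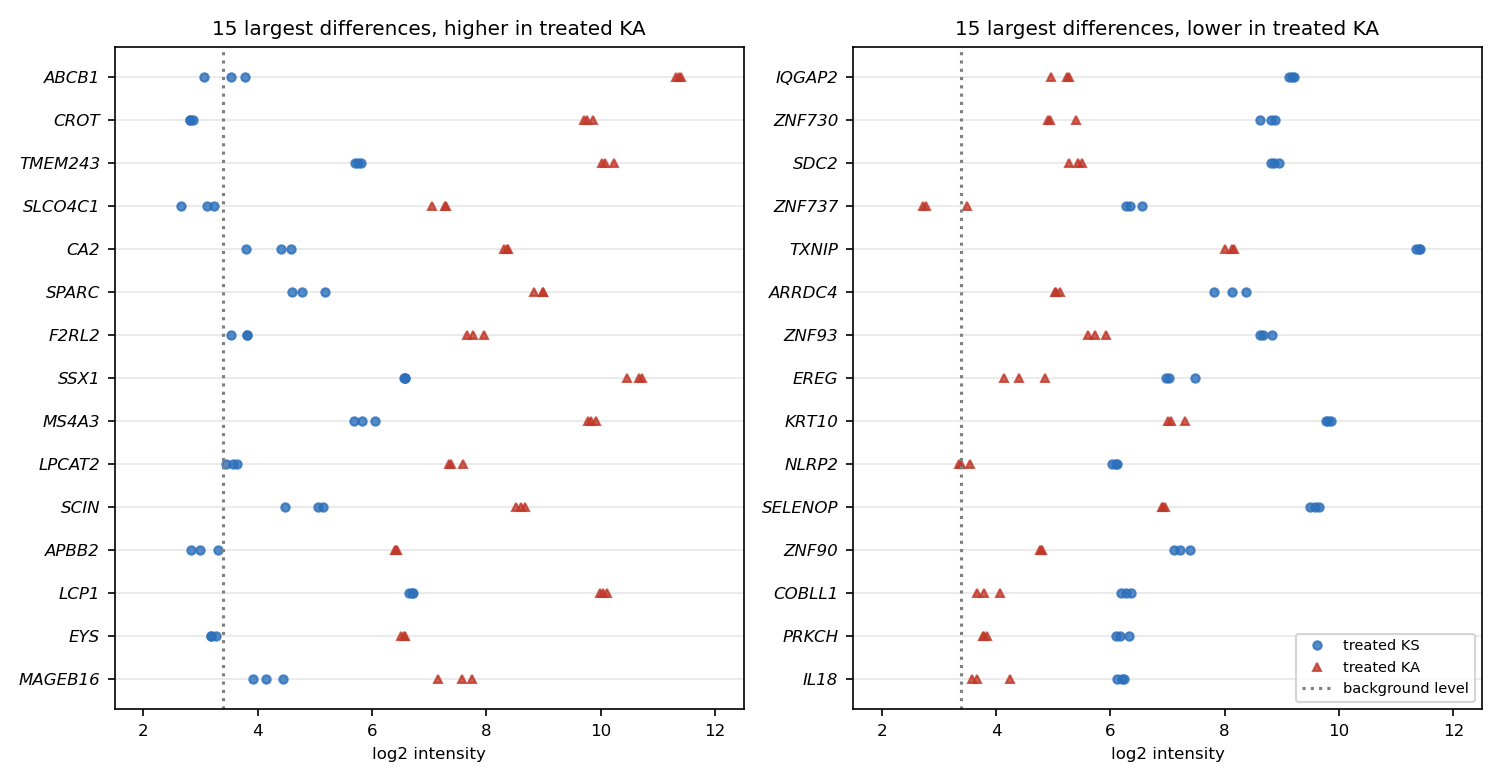
Log2 intensity on each of the 6 treated arrays (triangles, treated KA; circles, treated KS) for the 15 genes with the largest positive (left) and negative (right) differences; the dotted line is the background level of 3.39. Within each gene the lines do not overlap, and treated KS lies below the dotted line on every array for CROT, SLCO4C1, APBB2 and EYS.

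The largest deficit of treated KA was in IQGAP2, a scaffold of the actin cytoskeleton. It read 5.28, 5.25 and 4.97 in treated KA and 9.18, 9.13 and 9.21 in treated KS, without overlap (-4.01 ± 0.11, adjusted p = 5.4e-11, 16.1-fold lower). SDC2, a heparan sulphate proteoglycan of the cell surface, differed by -3.47 ± 0.10, the intermediate filament keratin KRT10 by -2.68 ± 0.10, and SELENOP, the plasma selenium carrier, by -2.65 ± 0.10. COBLL1, an actin-regulating protein, differed by -2.42 ± 0.14 and PRKCH, a protein kinase C, by -2.39 ± 0.10. NLRP2, a member of the NLR family (-2.65 ± 0.11), and IL18, a cytokine matured by inflammasomes (-2.35 ± 0.16), were also low in treated KA, where NLRP2 (3.43) was barely above background.

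TXNIP and ARRDC4, a pair of arrestin-domain proteins that restrain glucose uptake, were lower in treated KA by more than in the untreated lines. TXNIP read 8.16, 8.0 and 8.13 in treated KA and 11.41, 11.40 and 11.35 in treated KS. The difference of -3.29 ± 0.06 (adjusted p = 1.7e-12) was 1.02 ± 0.09 further down than the -2.27 of untreated lines (adjusted p = 0.00082), and decitabine changed TXNIP by -0.88 in KA (adjusted p = 1.8e-05) and by 0.14, not called, in KS. ARRDC4 read 5.04, 5.06 and 5.11 against 7.81, 8.12 and 8.38. Its difference was -3.03 ± 0.12, against -1.63 untreated, and decitabine changed it by -0.46 in KA (adjusted p = 0.026) and by 0.95 in KS (adjusted p = 8.8e-05). Of 34 genes of glycolysis and the response to low oxygen, 11 were higher and 2 lower, with a median of 0.12 beside -0.0015 over all genes. In untreated lines 21 were higher and 1 lower, with a median of 0.32. For 8 of the 34 the line difference was called more negative with decitabine and for 1 more positive, beside 2.14% and 4.60% of all genes. HK2, which phosphorylates glucose, was higher by 1.18 ± 0.19, SLC2A3, a glucose carrier, by 1.17 ± 0.11, and NDRG1, a gene known to respond to low oxygen, by 1.01 ± 0.11.

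The KRAB zinc finger genes of chromosome 19p12, which encode repressors that recognise DNA of transposable elements, were mostly lower in treated KA. Of 33 measured, 23 were lower (69.7%) and none was higher, with a median of -0.59, beside 11.9% lower over all genes. Untreated lines had 15 lower and 2 higher, with a median of -0.33, and for 3 the difference was called further down with decitabine. ZNF730 read 5.39, 4.95 and 4.91 in treated KA and 8.88, 8.62 and 8.81 in treated KS (-3.69 ± 0.20). ZNF93, which is known to repress a family of LINE-1 elements, read 5.73, 5.61 and 5.92 against 8.66, 8.63 and 8.83 (-2.96 ± 0.13). ZNF90 differed by -2.46 ± 0.16 and ZNF486 by -2.10 ± 0.16, and ZNF737, not above background in treated KA (2.99), was at least 7.79-fold lower. The same window search found a run centred on ZNF253 to ZNF737 on chromosome 19, spanning GMIP to ZNF431, in which 13 of 16 genes were lower and none higher. Its most extreme window had a median of -1.49, and -0.93 in untreated lines. These genes are similar in sequence, so part of a probe set's signal may come from a relative. Among 25 silencing genes and KRAB corepressors 6 were higher and 5 lower: EED, a core subunit of the Polycomb repressive complex PRC2, differed by -1.36 ± 0.09, MPHOSPH8, of the HUSH silencing complex, by -0.57 ± 0.10, and MORC3, a chromatin ATPase, by -0.45 ± 0.07, whereas ATF7IP, a partner of the SETDB1 methyltransferase, was higher by 0.39 ± 0.09.

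The ATF4 response was the list with the largest share of higher genes in treated KA. Of 34 measured genes, 28 were higher (82.4%) and 1, STC2, a secreted glycoprotein, was lower (-0.49 ± 0.11), and the median was 0.99. In untreated lines 15 were higher and 5 lower, with a median of 0.24. The difference between the lines was called more positive with decitabine for 22 of the 34 and more negative for none, where 847 of all genes were called more positive (4.60%) and 394 more negative (2.14%). Leaving out treated KS replicate 1 gave 27 higher and 1 lower, with 20 called more positive, and leaving out untreated KS replicate 3 gave 29 and 1, with 23 called more positive.

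Among enzymes that make amino acids, ASNS, CTH and PSAT1 were higher in treated KA. ASNS, asparagine synthetase, read 9.54 on all 3 arrays of treated KA and 7.48, 7.37 and 7.15 in treated KS (2.20 ± 0.09, adjusted p = 2.5e-09). CTH, which makes cysteine from cystathionine, read 8.78, 8.93 and 8.97 against 6.55, 6.33 and 6.25 (2.52 ± 0.09). PSAT1, an enzyme of serine synthesis, read 8.33, 8.23 and 8.38 against 6.92, 6.62 and 6.49. The lines did not overlap in any of them. PSAT1 differed by 1.64 ± 0.10 between treated lines but by 0.24, not called, between untreated ones, a change of 1.40 ± 0.14 (adjusted p = 0.00082). With decitabine it changed by 0.07 in KA (not called) and fell in KS by 1.33 (adjusted p = 6.3e-06). PHGDH, which starts serine synthesis, was lower in KA without decitabine (-0.39) and higher with it (0.61 ± 0.08), and MTHFD1L, a mitochondrial enzyme of one-carbon metabolism, was higher by 1.26 ± 0.09.

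Carriers of amino acids on the list were also called. SLC7A11, the cystine carrier that feeds glutathione synthesis, read 9.51, 9.44 and 9.61 in treated KA and 7.70, 7.17 and 7.29 in treated KS. Its difference of 2.14 ± 0.13 was 1.15 ± 0.18 larger than without decitabine (adjusted p = 0.0043). SLC3A2, the heavy chain that SLC7A11 and SLC7A5 need at the cell surface, was higher by 1.16 ± 0.08, and SLC7A5, a carrier of large neutral amino acids, by 1.20 ± 0.08. Their differences were 0.83 and 1.03 larger than between untreated lines, both called. SLC7A1, a carrier of arginine and lysine, was near the threshold (0.19 ± 0.07, adjusted p = 0.0496).

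Regulators and stress effectors were called as well. ATF4 itself read 9.41, 9.44 and 9.52 in treated KA and 8.87, 8.67 and 8.44 in treated KS (0.80 ± 0.10, adjusted p = 5.8e-05), with -0.11, not called, between untreated lines. ATF5, a related factor of the same pathway, read 7.58, 7.83 and 7.86 against 6.38, 6.41 and 6.27. Its difference of 1.40 ± 0.10 was 1.55 ± 0.15 larger than in untreated lines (adjusted p = 0.00082), and decitabine changed it by 1.55 in KA and 0.00 in KS. DDIT3, the stress factor CHOP, was higher by 1.85 ± 0.12, TRIB3, a pseudokinase that dampens ATF4, by 1.48 ± 0.10, CHAC1, which degrades glutathione, by 1.37 ± 0.10, and GDF15, a stress cytokine, by 1.85 ± 0.07. DDIT4, an inhibitor of mTOR, was higher by 2.28 ± 0.10 and by 2.19 without decitabine (change 0.08, not called). Over the list, decitabine raised 12 genes and lowered 1 in KA and raised 1 and lowered 21 in KS, with medians of 0.13 and -0.34. Over all genes decitabine raised 9.66% and lowered 4.96% in KA, and raised 14.6% and lowered 15.7% in KS. These 2 responses share arrays with the difference between treated lines.

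A list of chaperones and sensors of the endoplasmic reticulum also had more members higher than lower: of 26 measured, 17 were higher (65.4%) and 1, EDEM1, a lectin of the degradation pathway, was lower (-0.33 ± 0.09), with a median of 0.41. Untreated lines had 7 higher and 7 lower. For 11 of the 26 the difference was called more positive with decitabine and for none more negative, beside 4.60% and 2.14% of all genes. SEL1L, part of the export machinery for misfolded protein, read 7.79, 7.92 and 8.06 in treated KA and 6.36, 6.26 and 6.52 in treated KS (1.54 ± 0.09). HSPA5, the main chaperone BiP, read 11.19, 11.21 and 11.49 against 9.91, 10.04 and 9.84 (1.37 ± 0.10), and HERPUD1, a membrane protein of the same degradation pathway, differed by 1.37 ± 0.06. XBP1, a transcription factor of the unfolded protein response, was higher by 0.76 ± 0.08, of which 0.67 ± 0.11 was a change against the untreated lines. PPP1R15A, which restores translation after stress, was higher by 0.92 ± 0.09, and CALR, a calcium-binding chaperone, was not called (0.00 ± 0.07, adjusted p = 0.99). In KA decitabine raised 18 of the 26 and lowered none, and in KS it raised 7 and lowered 4, beside 9.66 and 4.96% of all genes in KA and 14.6 and 15.7% in KS. Not all chaperones went this way: of 23 heat shock genes 2 were higher and 6 lower.

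**Figure D2:**
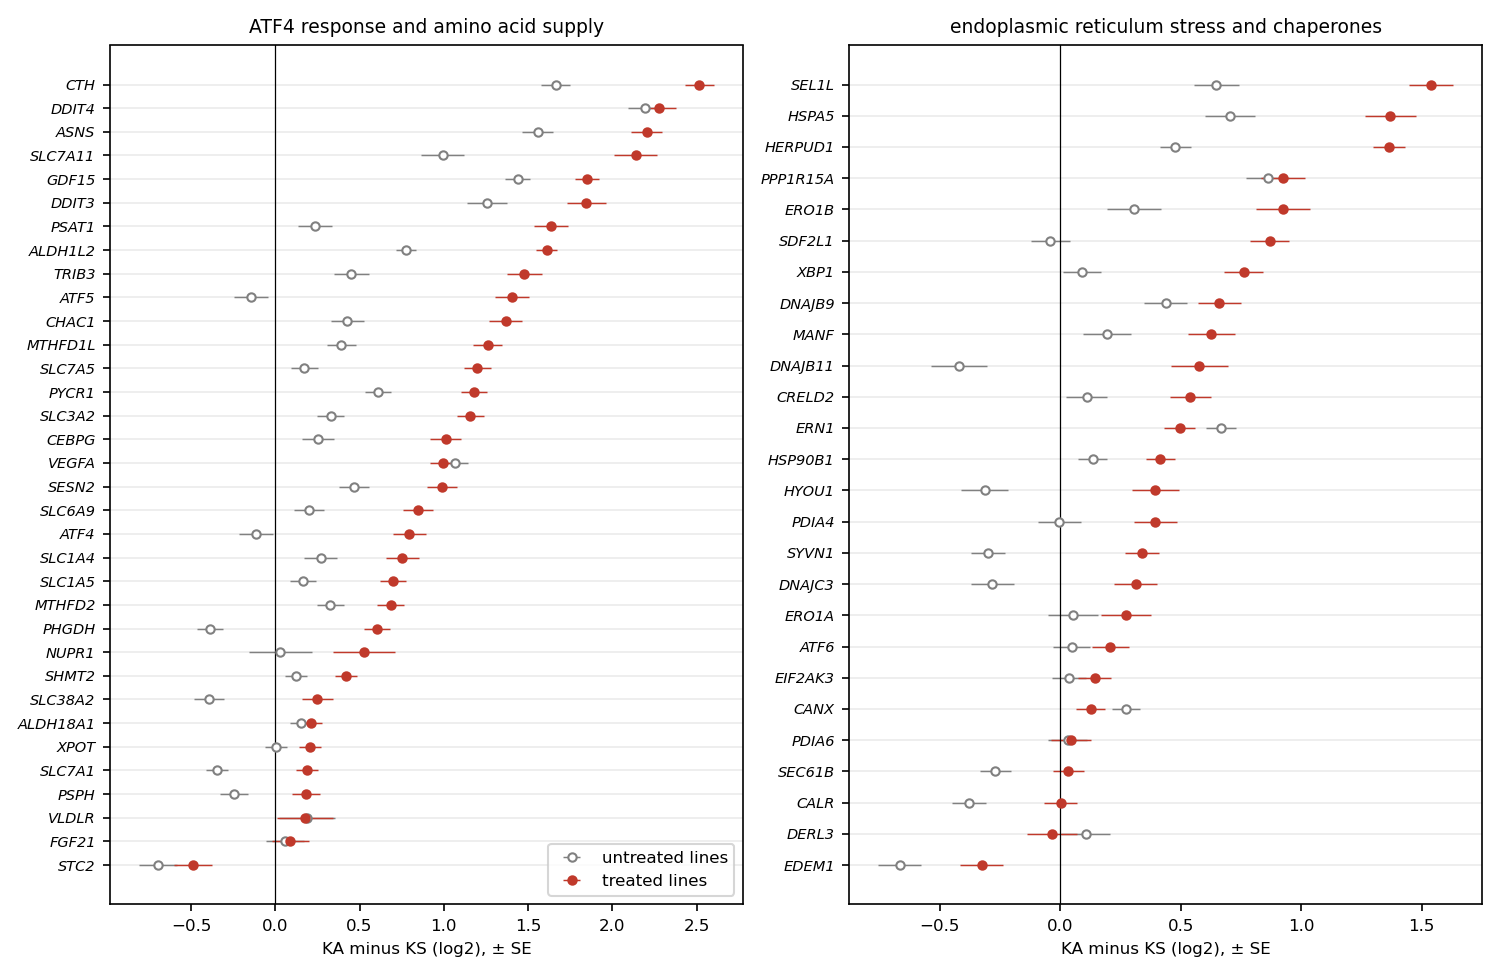
Difference between the lines (KA minus KS, log2, ± SE) for the 34 genes of the ATF4 list (left) and the 26 of the endoplasmic reticulum list (right), with filled points for treated lines and open points for untreated lines. Filled points lie mostly right of 0 and right of the open points, with STC2 and EDEM1 left of 0.

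The comparison with untreated lines gives the frame for these changes. Between untreated lines 4735 genes were called (25.7%), 2133 higher in KA (11.6%) and 2602 lower (14.1%). Both treated and untreated lines were called with the same sign for 2735 genes, which is 54.95% of the treated and 57.76% of the untreated calls, and with opposite signs for 93. The differences correlated across genes at 0.765 (Pearson) and 0.478 (Spearman), a description over genes of the same lines, which are not independent replicates. Of the 300 genes higher by at least 1 in treated KA, 277 were also called higher in untreated KA, and of the 211 lower by at least 1, 170 were also called lower. A direct test of the change in the line difference called 1241 genes (6.74%), 847 with a more positive difference after decitabine and 394 with a more negative one. Of the 847, 677 were called lowered by decitabine in KS and 192 raised in KA, while 10 were raised in KS and 92 lowered in KA. Of the 394, 354 were called raised in KS and 45 lowered in KA, while 1 was lowered in KS and 84 raised in KA. The change of the line difference is the response of KA minus that of KS on the same arrays. These splits therefore follow in part from how the genes were picked. Over all genes decitabine also had more calls in KS (2685 raised and 2900 lowered) than in KA (1780 and 914). The count for the change in the line difference was 778 with the replicate block and 564 without untreated KS replicate 1. Without untreated KS replicate 3 it was 2049, of which 1190 were shared with the 1241 in the same direction.

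**Figure D3:**
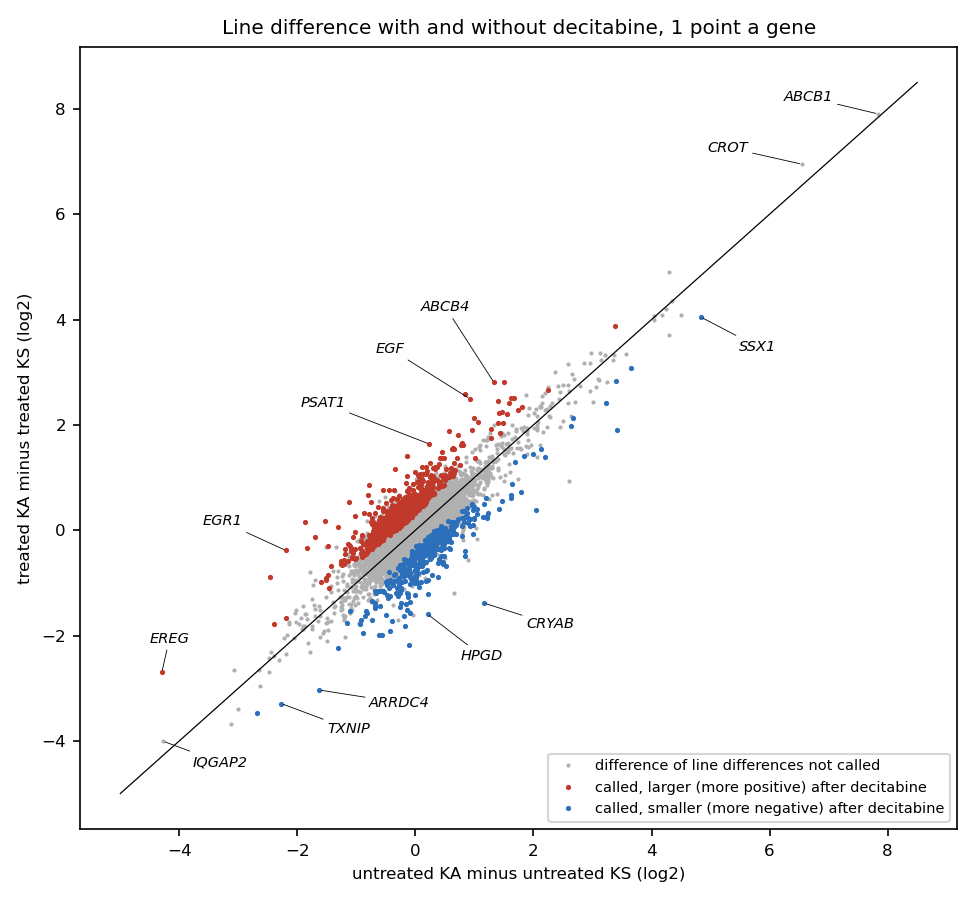
Each point is a gene, placed by its difference between untreated lines (horizontal) and between treated lines (vertical), both KA minus KS on the log2 scale; the line marks equal differences. Coloured points are the 847 genes with a more positive and the 394 with a more negative difference after decitabine; ABCB1 lies near the line, EREG above it and CRYAB below it, and differences against a group at background, such as that of CROT, are plotted as fitted.

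Immediate-early genes were among those whose line difference became more positive with decitabine. EGR1, a zinc finger factor induced by growth signals, read 8.96, 8.78 and 8.77 in treated KA and 9.98, 9.13 and 8.54 in treated KS. The treated lines overlapped (-0.38 ± 0.25, adjusted p = 0.30), the untreated ones differed by -2.19, and the change was 1.81 ± 0.35 (adjusted p = 0.012). FOS, a subunit of AP-1, went from -1.12 to 0.54 ± 0.17 (adjusted p = 0.031), and the call between treated lines was lost in 6 of the alternatives. In both genes decitabine lowered KS (-2.07 and -1.73) and was not called in KA (-0.26 and -0.06). Of 35 genes that report ERK signalling, 8 were higher and 8 lower between treated lines (22.9% each), against 5 and 13 untreated. For 11 the change was called positive and for 2 negative, beside 4.60% and 2.14% of all genes. ATF3, a stress-induced factor, was higher by 1.19 ± 0.14 and the phosphatase DUSP1 by 1.05 ± 0.09, against 0.34 (not called) and 0.26 untreated. JUN was higher by 1.06 ± 0.08 and by 1.02 untreated, while the feedback inhibitor SPRY2 differed by -1.12 ± 0.12.

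Ligands of the EGF receptor family differed in opposite directions. EREG, epiregulin, read 4.15, 4.86 and 4.40 in treated KA and 7.48, 7.03 and 6.98 in treated KS (-2.69 ± 0.20, adjusted p = 5e-07). Without decitabine the difference was -4.29, and decitabine lowered EREG in KS (-1.71) and was not called in KA (-0.11). EGF itself read 5.83, 5.86 and 6.40 in treated KA and 3.56, 3.24 and 3.79 in treated KS. Its difference of 2.50 ± 0.17 was 1.58 ± 0.24 larger than without decitabine (adjusted p = 0.0039), with a change of 1.58 in KA and of -0.00 in KS, where it was near background. Of 18 genes of this family, 3 were higher and 2 lower. ERRFI1, an inhibitor of the receptor, was higher by 0.44 ± 0.09 and the receptor ERBB4 lower (-0.36 ± 0.11).

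Other genes rose with decitabine in KS, and the line difference became more negative. CRYAB, a small heat shock protein, read 5.96, 5.99 and 6.05 in treated KA and 7.38, 7.36 and 7.42 in treated KS (-1.39 ± 0.23). It was higher in KA without decitabine (1.17), a change of -2.56 ± 0.33 (adjusted p = 0.0024), and decitabine raised it by 2.14 in KS (-0.42, not called, in KA). PGLYRP4, a peptidoglycan recognition protein, differed by -2.17 ± 0.35, and HPGD, which inactivates prostaglandins, by -1.60 ± 0.23; neither was called between untreated lines (-0.11 and 0.21). PSMB9, a subunit of the immunoproteasome, read 4.63, 4.92 and 4.93 in treated KA and 6.61, 6.62 and 6.69 in treated KS. Its difference of -1.82 ± 0.17 was -1.65 ± 0.24 from that of untreated lines, with a response of 1.87 in KS and of 0.23, not called, in KA.

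More antigen presentation and interferon genes were lower than higher in treated KA. Of 20 antigen presentation genes 9 were lower (45.0%) and none higher, with a median of -0.14, and 3 were at background in both lines. Untreated lines had 7 lower and none higher. ERAP1, which trims peptides for HLA, differed by -0.98 ± 0.09 and the loading factors TAPBP and TAPBPL by -0.83 ± 0.08 and -0.91 ± 0.15. Of 53 interferon-stimulated genes 17 were lower (32.1%) and 5 higher (9.43%), with a median of -0.14, and 17 were at background in both lines. Between untreated lines 11 of the 53 were lower and 3 higher. The line difference was called more positive with decitabine for 6 and more negative for 1. This lean depends on the 2 arrays that stood apart. Without untreated KS replicate 3 the numbers were 7 and 7, and without treated KS replicate 1 they were 3 and 2. Of all genes tested 11.9% were lower and 15.1% higher between treated lines. IFITM3, which blocks virus entry, read 6.83, 6.55 and 6.98 in treated KA and 8.21, 8.16 and 8.33 in treated KS (-1.44 ± 0.11). RSAD2 (viperin, -1.62 ± 0.20), the nucleotide kinase CMPK2 (-1.41 ± 0.12) and the ubiquitin ligase DTX3L (-1.51 ± 0.06) were lower as well. TNFSF10, the death ligand TRAIL, was not above background in treated KA (2.76) and at least 2.57-fold lower, while its receptor TNFRSF10B was higher by 0.69 ± 0.07. CASP4, an inflammatory caspase, differed by -2.30 ± 0.15 and NOD1, a peptidoglycan sensor, by -1.43 ± 0.11, and of 39 complement and inflammasome genes 3 were higher and 8 lower.

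Genes that move or act on the study's drugs differed one by one. Of 24 efflux transporters 3 were higher and 8 lower, with a median of -0.18. ABCG2, a pump for many cytostatics, read 3.64, 3.65 and 3.69 in treated KA and 5.27, 5.22 and 5.49 in treated KS (-1.66 ± 0.10, adjusted p = 8.2e-08), and ATP7B, a copper exporter, differed by -1.52 ± 0.09. ABCC1, another anthracycline pump, was not called (0.03 ± 0.07, adjusted p = 0.84). Of 21 uptake carriers 5 were higher and none lower, and 6 were at background in both lines: SLCO1A2 was higher by 0.69 ± 0.09 and SLC67A1 by 0.68 ± 0.15. Of 19 anthracycline targets and metabolic genes 9 were lower (47.4%) and 2 higher, with a median of -0.24, and untreated lines had 9 lower and 1 higher. CBR1, which reduces doxorubicin to its alcohol, differed by -1.78 ± 0.18, its relative CBR4 by -0.91 ± 0.11, and the topoisomerases that anthracyclines trap by -0.32 ± 0.08 (TOP2A) and -0.60 ± 0.10 (TOP2B). AKR1C1 (-0.64 ± 0.06) and AKR1C2 (-0.72 ± 0.10), aldo-keto reductases, are near-identical in sequence and cannot be read apart with certainty.

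Decitabine's own pathway differed modestly. DCK, the kinase that activates it, read 7.22, 7.09 and 6.97 in treated KA and 7.42, 7.38 and 7.55 in treated KS (-0.36 ± 0.09, adjusted p = 0.0075). No call was made for CDA, which inactivates it (0.19 ± 0.10, adjusted p = 0.19), or for the nucleoside transporter SLC29A1 (-0.06 ± 0.07, adjusted p = 0.66). Of 22 genes of activation and nucleotide metabolism 3 were higher (13.6%) and 4 lower (18.2%), beside 15.1% and 11.9% of all genes. UCK2, a uridine-cytidine kinase, differed by 0.84 ± 0.06, NT5C, a nucleotidase, by 0.45 ± 0.08, and TYMS, thymidylate synthase, by -0.52 ± 0.06. DNMT3B, a DNA methyltransferase, read 7.63, 7.45 and 7.35 against 7.11, 7.05 and 7.07 (0.40 ± 0.08, adjusted p = 0.0022). It was not called between untreated lines (-0.02), a change of 0.43 ± 0.12 (adjusted p = 0.045), and decitabine lowered it in KS (-0.45). DNMT1 (0.07 ± 0.06, adjusted p = 0.51) and DNMT3A (0.17 ± 0.10, adjusted p = 0.24) were not called. Of 25 genes of the methylation machinery 4 were higher and 3 lower, among them IDH1, a dehydrogenase whose product feeds demethylation (0.59 ± 0.07), GADD45A, a stress gene linked to demethylation (0.79 ± 0.08), and the methyl-DNA reader ZBTB33 (0.49 ± 0.09).

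Genes that DNA methylation often silences differed by list. Of 27 MAGE, SSX and related tumour antigens 7 were higher and none lower (9 and none untreated), and 5 were at background in both lines. MAGEC2 was higher by 2.83 ± 0.07, which was 0.57 less than in untreated lines (adjusted p = 0.0057) with a rise of 0.63 in KS, and MAGEA1 and CT55 by 2.44 ± 0.14 and 2.17 ± 0.12. SSX1, described above, was 0.80 ± 0.13 less different than without decitabine (adjusted p = 0.0055), having risen by 0.78 in KS. Of 38 other germline genes 5 were higher and 4 lower: PIWIL4, of the piRNA pathway, by 1.06 ± 0.10, and MAEL, which silences transposons, by 0.77 ± 0.27 (adjusted p = 0.049), a call lost in 10 of 20 alternatives. Of 27 imprinted genes 5 were higher and 5 lower. DIRAS3, a small GTPase that suppresses growth, was higher by 2.22 ± 0.14 and the zinc finger factor PLAGL1 by 1.29 ± 0.08, whereas NNAT, a proteolipid, was lower (-0.78 ± 0.15). Promoters held for genes higher by at least 1 had a median of 24 CpG dinucleotides in 300 bases, those for genes lower by at least 1 had 19, and all measured genes with a promoter had 23.

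More red cell genes were lower than higher in treated KA. Of 29 genes of the red cell membrane and its enzymes 3 were higher (10.3%) and 8 lower (27.6%), beside 15.1% and 11.9% of all genes. Between untreated lines 9 were higher and 4 lower. For 5 the change was called negative and for none positive, beside 2.14% and 4.60% of all genes. AQP1, the water channel, read 8.58, 8.49 and 8.32 in treated KA and 10.01, 10.25 and 10.23 in treated KS (-1.70 ± 0.41, adjusted p = 0.0067), having risen with decitabine in both lines (1.59 and 3.0). CD44, an adhesion receptor, and BPGM, which makes bisphosphoglycerate, were higher by 1.07 ± 0.08 and 1.03 ± 0.09. Of 6 globin genes with a value of their own 2 were lower and none higher, where 3 had been higher between untreated lines. HBD, the delta chain, read 6.86, 7.0 and 6.90 against 7.14, 7.32 and 7.51 (-0.40 ± 0.10), a change of -1.25 ± 0.15 from untreated lines (adjusted p = 0.0019), and HBB, the beta chain, differed by -0.59 ± 0.15. The call was lost for HBD without treated KS replicate 3 and for HBB without treated KA replicate 2 (adjusted p = 0.0545 and 0.051). The globins HBE1 and HBZ, bright at 12.73 and 11.60 in treated KA, were not called. Globin genes are similar in sequence, so their signals may be mixed.

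Megakaryocyte and myeloid genes went both ways. Of 27 megakaryocyte and platelet genes 7 were higher and 6 lower: GP6, the collagen receptor of platelets, by 1.71 ± 0.10, ITGA2B, the platelet integrin, by 1.25 ± 0.09, and CD9, a tetraspanin, by -1.15 ± 0.11. PTGS1, the cyclooxygenase of platelets, read 8.14, 8.21 and 8.13 in treated KA and 4.81, 5.04 and 4.96 in treated KS (3.22 ± 0.12). Of 30 myeloid genes 4 were higher and 6 lower: LYZ, lysozyme, read 8.91, 8.93 and 9.09 against 11.06, 11.03 and 10.95 (-2.03 ± 0.34), having risen with decitabine in both lines. MEIS1, a homeobox factor of early precursors, differed by -1.76 ± 0.10, and KIT, the stem cell factor receptor, by -1.28 ± 0.15. STAT5A, a factor downstream of BCR-ABL, was higher by 0.64 ± 0.08 with 0.02 untreated, and SOCS1, an inhibitor of that pathway, lower (-0.77 ± 0.12) with 0.17 untreated, changes of 0.61 ± 0.11 and -0.94 ± 0.17. Of markers of other cells, 2 of 17 lymphoid genes were higher: CD3D, a chain of the T-cell receptor complex, by 2.36 ± 0.09 and CD3G by 0.64 ± 0.14. Of 12 epithelial markers 1 was higher and 2 lower, and none of 18 fibroblast and endothelial markers was called.

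More histone genes of the replication-dependent clusters were higher than lower in treated KA. Of 48 measured, 17 were higher (35.4%, beside 15.1% of all genes) and 1 lower, with a median of 0.23, against 2 and 6 between untreated lines. H2AC20 read 9.41, 9.44 and 9.34 in treated KA and 9.13, 7.85 and 8.10 in treated KS (1.03 ± 0.23), H4C2 differed by 0.76 ± 0.16 and H1-5, a linker histone, by 0.76 ± 0.22. The treated arrays of H1-5 overlapped, and its call was lost in 6 alternatives. Treated KS replicate 1 is the high value of that line for H2AC20, and its part in the result was not tested beyond leaving it out, which gave 25 higher and 1 lower, and 22 instead of 8 with a line difference called more positive after decitabine. Decitabine lowered 27 of the 48 in KA and 35 in KS, with medians of -0.44 and -0.79, where it lowered 4.96% of all genes in KA and 15.7% in KS. The copies are near-identical, so which member was read is uncertain.

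More division and repair genes were lower than higher in treated KA, as they were between untreated lines. Of 38 mitosis genes 11 were lower (28.9%) and 4 higher, with a median of -0.15, and untreated lines also had 11 and 4. Of 35 repair and checkpoint genes 8 were lower (22.9%) and 2 higher, against 9 and 2 untreated. The shares of all genes were 11.9% lower and 15.1% higher. ATM, the kinase that senses double-strand breaks, read 7.63, 7.52 and 7.42 in treated KA and 8.83, 8.78 and 9.11 in treated KS (-1.38 ± 0.09). ATR, its relative for stalled forks, differed by -0.84 ± 0.10, CHEK1 by -0.67 ± 0.09 and MRE11, a nuclease at breaks, by -0.74 ± 0.10. ATM, CHEK1 and MRE11 all lie on chromosome 11, where 206 of 1144 protein-coding genes were higher and 173 lower. The proliferation marker MKI67 differed by -0.38 ± 0.08 and MYC by 0.35 ± 0.07, with -0.44 and 0.37 between untreated lines. Of 27 genes listed as targets of p53 10 were higher (37.0%) and 3 lower (11.1%), against 7 and 3 untreated. SESN2, which is also on the ATF4 list, differed by 0.99 ± 0.09, AEN, an exonuclease, by 0.80 ± 0.08, and TP53INP1, an autophagy factor, by -0.94 ± 0.23. Whether p53 acts on these genes in either line was not tested. Of 22 BCL2 family genes 4 were higher and 1 lower, with PMAIP1 (NOXA) at 0.43 ± 0.08. Sterol and fatty acid synthesis had 10 of 28 lower and 4 higher, with CYP51A1, a sterol demethylase of the chromosome 7 run, higher by 1.27 ± 0.07.

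**Figure D4:**
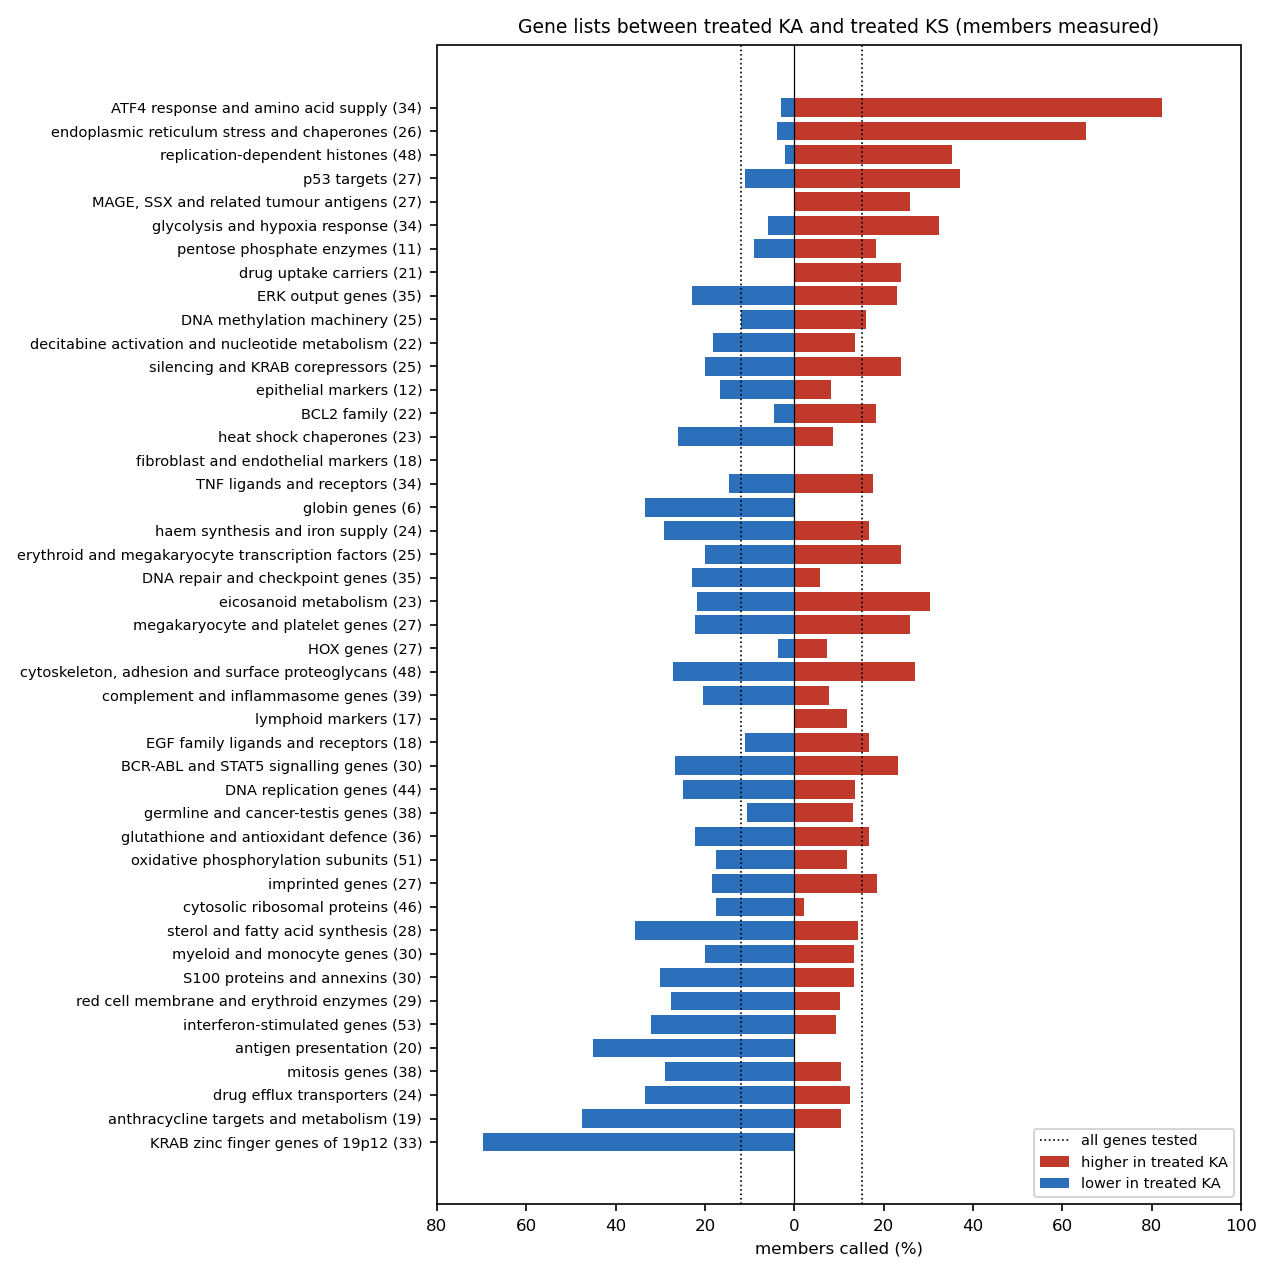
Share of each list's measured members (number in brackets) called higher (right) or lower (left) in treated KA, ordered by the list's median difference; dotted lines mark the 15.1% and 11.9% of all genes tested. The ATF4 list reaches 82.4% higher and the zinc finger genes of 19p12 reach 69.7% lower.

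Calls were spread unevenly over chromosomes among protein-coding genes. On chromosome 13, 106 of 280 genes were lower (37.9%) and 17 higher, with a median of -0.15, and untreated lines had 113 lower and 12 higher. Chromosome 3 had 218 of 949 lower and 103 higher, and chromosome 10 had 109 of 635 lower and 54 higher. On chromosome 14, 131 of 526 were higher and 27 lower, on chromosome 4, 160 of 662 higher and 62 lower, and on chromosome 7, 195 of 752 higher and 73 lower. Chromosome 17 had 207 of 982 higher and 85 lower, where untreated lines had 124 and 116. These directions were the same with quantile normalization, with median centring and without treated KS replicate 1. Neighbouring genes are not independent, and no test of the unevenness was made.

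**Figure D5:**
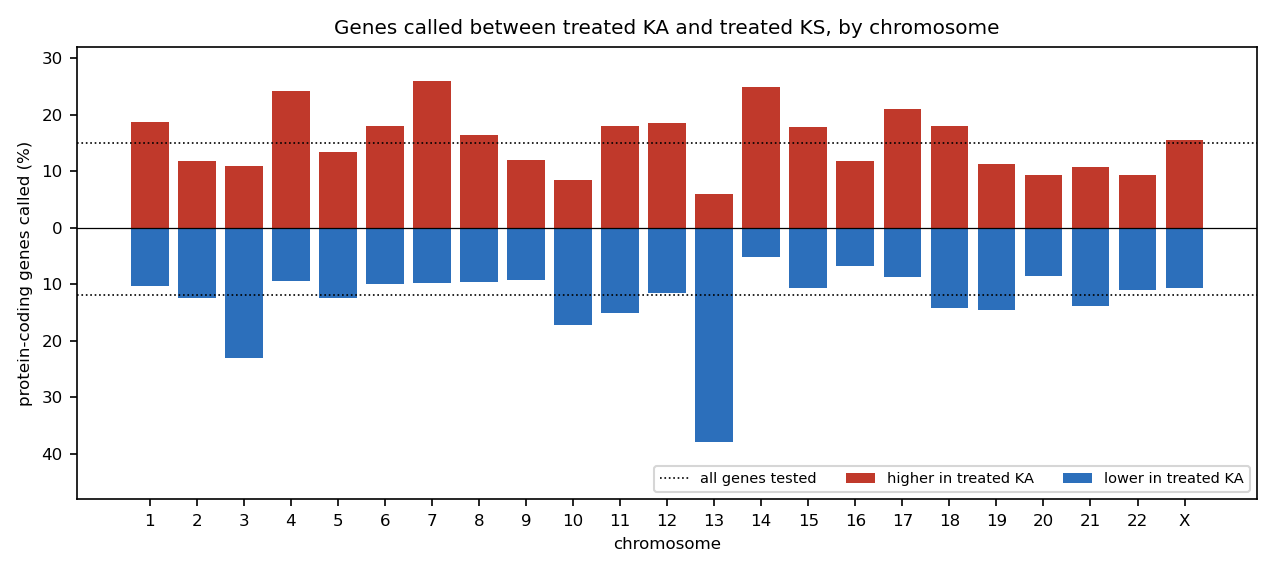
Percentage of protein-coding genes on each chromosome called higher (up) or lower (down) in treated KA; dotted lines mark the 15.1% and 11.9% of all genes tested. Chromosome 13 stands out downwards at 37.9%, and chromosomes 7, 14 and 4 reach 25.9, 24.9 and 24.2% upwards.

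Few microRNA genes were called. Of 173 measured, 2 were higher and 11 lower, both shares below the 15.1% and 11.9% of all genes, and 100 were at background in both lines, some of the called ones among them. The array reads the gene or its precursor and not the mature RNA, so the mature sequences (RefSeq, 5′ to 3′, seed of bases 2 to 8 in capitals) only show which targets each gene could address. They lie at chr17:59841273-59841294 on the plus strand (miR-21-5p), chr13:50049167-50049188 on the minus strand (miR-15a-5p) and chr3:160404607-160404628 on the plus strand (miR-15b-5p) of GRCh38.p14, and the last pair share their seed.
miR-21-5p: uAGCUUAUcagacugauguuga
miR-15a-5p: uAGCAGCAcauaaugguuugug
miR-15b-5p: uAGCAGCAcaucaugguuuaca
MIR21, an abundant microRNA gene of many tumours, read 4.06 in treated KA and 5.80 in treated KS (-1.74 ± 0.12, adjusted p = 3.2e-07; -2.03 untreated). MIR15A, which lies within the non-coding gene DLEU2 on chromosome 13, differed by -1.42 ± 0.15 and DLEU2 by -1.07 ± 0.12. MIR15B was lower (adjusted p = 0.0029) but not above background in treated KA. MIR30E and MIR142 differed by -1.06 ± 0.15 and -1.04 ± 0.24.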

How the data were processed

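The 12 arrays were read from the series matrix, which the authors deposited as log2 intensities. Their background correction, summarization and normalization are not given in the sources used here. They were not rescaled. The platform annotation gives 1 gene symbol for 19460 of 33297 transcript clusters, several for 1754 and none for 12083, and 19429 matched a RefSeq gene (GRCh38.p14) by Entrez identifier. Each of 18417 genes was read from its brightest cluster (769 had more than 1), and 16902 genes are protein-coding. Other clusters were tested apart.

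The model has a mean for each of the 4 groups and was fitted to all arrays with limma 3.58.1 under R 4.3.3; eBayes added 4.71 prior to the 8 residual degrees of freedom. Adjustment was by Benjamini-Hochberg. Named are the 15 genes furthest apart in each direction among protein-coding, non-overlapping ones above background, the 10 with the largest change of the line difference in each direction, up to 4 called members of each list and run, and 20 fixed genes. Further members of described lists were named after their values were seen. The genes and lists were chosen with earlier results of these data known. Alternatives were median centring, quantile normalization, leaving out dim genes, the treated arrays alone, a trended robust fit, array weights, a replicate block, the mean of a gene's clusters and each array left out. In 10 simulations with 200 changed genes, the fit found 96.7% of treated line differences of 1 and 65.5% of 0.5, with 4.88% false calls. For changes of the line difference it found 89.1 and 22.1%, with 5.77% false. The simulated noise was independent between genes and arrays, so these rates do not cover shifts that many genes of an array share. The number of arrays limits the precision. Figures used matplotlib 3.10.9 in Python 3.11.15.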

Additional observations from a re-analysis of the deposited data

Results flagged for a closer look

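The difference between the lines itself differed with decitabine, by the limma test of the change, for 1241 genes. Among the genes named for the size of their difference between treated lines, the change was -0.80 for SSX1, 0.50 for LPCAT2, -0.77 for SDC2, -1.02 for TXNIP, -1.40 for ARRDC4 and 1.60 for EREG. Among the genes named for the change itself it was 1.81 for EGR1, 1.74 for RUNDC3B, 1.66 for FOS, 1.58 for EGF, 1.55 for ATF5 and 1.51 for C3AR1, the receptor of the complement fragment C3a. It was 1.48 for ABCB4, 1.47 for SLC10A5, a bile acid carrier relative that was not above background in treated KS or untreated KA, so that the size is not exact, and 1.40 for PSAT1.

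In the other direction the change was -2.56 for CRYAB, -2.06 for PGLYRP4, -1.80 for HPGD and -1.65 both for ZC3H6, a zinc finger gene, and for PSMB9. It was -1.51 for CD226, an activating receptor of lymphocytes and platelets that decitabine raised in both lines, and -1.49 both for FLT1, a VEGF receptor above background in treated KS alone, and for LAMB1, a laminin chain. It was -1.43 both for ACSL5, which activates fatty acids, and for NXF3, a relative of RNA export factors. Among the fixed genes DNMT3B changed by 0.43.

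Of 13837 transcript clusters without exactly 1 gene symbol, which the gene comparisons leave out, 749 were called between treated lines, 328 higher and 421 lower in KA, and 140 differed by at least 1 with the brighter line above background.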

How the results depend on the processing

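The count of genes called between treated lines stayed within 1.5 times the reported one under the alternatives run, from 4180 without treated KA replicate 3 to 5422 with a trended robust fit. It was 4653 with the replicate block (2606 higher and 2047 lower). Single genes were run through the alternatives only where the naming rules had chosen them. Among these rule-chosen genes no direction of a called difference reversed. Members of lists that were named after their values were seen, SLC7A1 among them, were not run. The count for the change of the line difference was less stable: 1918 with a trended robust fit, 2288 with array weights, 778 with the replicate block, and 564 to 2049 with 1 array left out. It was 2049 without untreated KS replicate 3, and 564 to 780 without untreated KS replicate 1, untreated KA replicate 1 or 2, treated KS replicate 2 or 3 or any treated KA array. Same-numbered treated arrays deviated together at 0.0421, 0.187 and -0.038, so the numbers were not taken to pair them. Over all alternatives and rule-chosen genes, a call between treated lines was kept 3924 times and lost 75 times. An uncalled difference stayed so 190 times and was called 10 times. For the change of the line difference the numbers were 969, 247, 2692 and 81. Of the rule-chosen genes described above, MAEL, FOS, H1-5, ERBB4, TFRC, HBB and HBD lost the call between treated lines with some treated arrays left out. MAEL and H1-5 also lost it with a trended robust fit, FOS and H1-5 with the treated arrays alone, and MAEL without each untreated KA array. EGR1, ZC3H6 and CDA gained a call in some alternatives.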

Other observations

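TP53TG1, a non-coding RNA of the ABCB1 region, read 8.67, 8.24 and 8.45 in treated KA and 3.72, 3.72 and 3.23 in treated KS (4.90 ± 0.14, limma adjusted p = 4.5e-11). CCDC26, a non-coding RNA studied in leukaemia, was higher by 2.13 ± 0.09, which was 0.55 less than in untreated lines (adjusted p = 0.03). NFE4, listed as non-coding and linked to the control of fetal globin, was higher by 1.18 ± 0.08. Of 632 long non-coding genes 37 were higher and 52 lower, and of 175 small nucleolar RNA genes 10 were higher and 26 lower, with 51 at background in both lines. Beside the 15.1% higher and 11.9% lower of all genes, the long non-coding shares are smaller in both directions. MEG3, an imprinted non-coding RNA, differed by -1.11 ± 0.29 (adjusted p = 0.011).

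TKTL1, a transketolase relative, read 7.80, 7.48 and 6.95 in treated KA and 8.42, 8.65 and 8.60 in treated KS. The arrays did not overlap, but the difference of -1.14 ± 0.43 was not called (limma adjusted p = 0.066). With the 6 treated arrays alone it was called (adjusted p = 0.00174), as with quantile normalization (0.0467) and array weights (0.02). It was also called without untreated KS replicate 2 (0.0395) or 3 (0.000425), which leaves the difference as it was and changes only the shared estimate of spread. In the other alternatives it stayed uncalled. Of 46 cytosolic ribosomal protein genes 1 was higher and 8 lower, and of 51 subunits of oxidative phosphorylation 6 were higher and 9 lower, the latter near the shares of all genes (15.1% and 11.9%). Of 30 S100 proteins and annexins 4 were higher and 9 lower, with S100A4, a calcium-binding protein linked to cell movement, at -1.19 ± 0.18 and a change of -1.05 from untreated lines. Of 36 genes of glutathione and antioxidant defence 6 were higher and 8 lower.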
